A study of Mus musculus with 9 samples.

Results

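RNA of MHC class II positive phagocytes of the mouse peritoneal wall was compared with that of the macrophages beside them that lacked surface MHC class II. The 6 MHC class II positive libraries were 3 of CCR2-RFP and 3 of CX3CR1-GFP cells, and they were set together against 3 double-negative libraries, so that all 9 libraries of the series were used. The genes described first are those whose 3 double-negative values lay all below or all above the other 6 values. Of 28764 gene symbols listed, 484 had all double-negative values below and 667 had all of them above. Of the 10136 genes with at least 1 TPM (a transcript level scaled to transcript length and to the library's total) in at least 3 libraries, 401 and 507 did so.

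The animals in every group carried 1 green reporter allele at Cx3cr1 and 1 red reporter allele at Ccr2 (Cx3cr1gfp/+ Ccr2rfp/+, the F1 cross of 2 reporter strains), so each had 1 disrupted copy of both receptor genes. All received 50 µg of Dextran-Cascade Blue intravenously 1 day before the experiment, were perfused, and had the peritoneal wall digested for 20 minutes with Liberase TL in the presence of the caspase inhibitor Z-VAD-FMK. CD11b+ Ly6G- cells were sorted into TRIzol. Double-negative cells had taken up dextran, carried no MHC class II and neither reporter, and made up 85 to 90% of the gate. CCR2-RFP cells (MHC class II positive, 10 to 15% of the gate) are labelled as migratory tissue monocytes, and CX3CR1-GFP cells (MHC class II positive, 0.5 to 1.5%) as sessile resident macrophages. Dextran was part of the gate for double-negative cells only, so uptake of dextran, MHC class II and reporter state differ together and cannot be told apart. Neither the age nor the sex of the animals is given in the sources used here. The design names 3 mice and 3 replicates per population, with sort labels 1, 2A and 2B, read here as animals. No source used here says whether 2A and 2B came from 1 sort day, in which case these replicates would be less independent. The description field of 6 libraries names the other reporter-positive population, while their titles, source names, cell types and column headings give the same one. The comparison of 6 libraries with 3 is the same under both readings, and values given per population follow the headings. Ccr2 was 2.80 ± 1.60 TPM in double-negative and 107 ± 10.4 TPM in the libraries headed CCR2-RFP, against 5.33 ± 1.22 TPM in those headed CX3CR1-GFP. Cx3cr1 was listed at 0 in the former 6 libraries and at 6.51, 16.4 and 4.13 TPM in the latter 3.

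MHC class II molecules are pairs of an alpha and a beta chain that display peptides from taken-up material to CD4 T cells. The invariant chain CD74 escorts them to the endosome, H2-DM loads the peptide, and the transactivator CIITA, acting with RFX proteins on a conserved upstream module, switches the whole set of genes on. Resident macrophages of connective tissue are known for clearing dead cells, plasma proteins and haem through scavenger receptors, C-type lectins and complement, and many of them carry little MHC class II.

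TPM keeps no count of reads, so sequencing depth is unknown and the number of libraries sets the precision. Listed values summed to 278579 to 382828 TPM per library, and 8972 to 9534 genes per library reached 1 TPM. Siglece alone took 21.9 to 34.7% of the listed sum, 21.9 to 29.1% in CX3CR1-GFP libraries. The 8 listed mitochondrial mRNAs summed to 12898 to 19514 TPM in double-negative, 7491 to 10259 in CCR2-RFP and 8914 to 15396 TPM in CX3CR1-GFP libraries, and ribosomal protein genes to 8266 to 10849, 15856 to 17719 and 8012 to 8520.0 TPM. Their part in the results was not tested. Values are given in the order of sorts 1, 2A and 2B, means are ± SD (n = 3 libraries), and differences are on log2(TPM + 1), which understates the change of low genes. A gene is called at an adjusted p below 0.05 in limma, with Benjamini-Hochberg adjustment over the 10136 genes. Since the rule on overlap and the tests read the same values, the share of called genes among those without overlap is no separate support. In bulk RNA, fewer cells of a type and less RNA per cell cannot be told apart. Macrophage genes were present in all groups: Csf1r was 207 ± 29.4, 63.4 ± 3.77 and 204 ± 7.38 TPM in double-negative, CCR2-RFP and CX3CR1-GFP cells, and Adgre1 (F4/80) was 78.4 ± 4.58, 41.5 ± 3.07 and 75.8 ± 3.34 TPM in that order. Fcgr1 (CD64) was at 12.2 ± 1.24, 0.794 ± 1.06 and 12.4 ± 2.15 TPM, so 1 macrophage marker was near 0 in CCR2-RFP cells. The 10 skeletal muscle markers summed to 455 to 491 TPM in double-negative, 92.7 to 1382 in CCR2-RFP and 340 to 2303 TPM in CX3CR1-GFP libraries, highest in sort 2A of both positive populations. None of the 10 was called between positive and double-negative cells, where 6.85% of all genes were called higher and 5.84% lower. Lists for 9 other cell types gave 1 lower call, the B cell gene Ighm (61.2 ± 12, 13.7 ± 0.380 and 45.2 ± 7.28 TPM), and 1 higher call, the NK cell gene Klrb1c (0.104 ± 0.0995, 1.69 ± 0.631 and 0.302 ± 0.271 TPM). Klrb1c passed the filter through the CCR2-RFP libraries alone, so it could be tested only because it was higher there. With a pseudocount of 0.1 or 5, or with no filter on low values, the T and NK cell list had 0 higher calls. The other of 2 B cell genes tested, Cd79b, was called higher in CX3CR1-GFP than in double-negative cells (1.42, limma adjusted p = 0.0260). That call was lost in 6 of the 15 alternative settings that tested it. The mesothelium and eosinophil lists had 0 genes tested and the endothelium list 1, so their lack of calls says little.

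The genes of the class II molecules themselves check the labels, because the cells were sorted on I-A/I-E protein. H2-Aa, the alpha chain of I-A, was 44.3, 68.7 and 91.7 TPM in the double-negative libraries, 1682, 1937 and 1904 in CCR2-RFP and 467, 893 and 658 TPM in CX3CR1-GFP libraries. Cd74 was 137, 209 and 159 TPM, 2826, 3448 and 3015 TPM and 917, 1549.7 and 1114 TPM in the same order. No positive library came near the double-negative range of either gene, and the double-negative cells, though sorted as negative, still listed both. CX3CR1-GFP cells held a level between the other populations, -1.50 (log2) from CCR2-RFP cells for H2-Aa (limma adjusted p = 0.00281) and -1.40 for Cd74 (adjusted p = 8.71e-04). The beta chain genes H2-Ab1 (chromosome 17, 34257689 to 34269419, GRCm38) and H2-Eb1 (chromosome 17, 34305867 to 34316674) followed the same order. H2-Eb1 was 14.2, 25.5 and 28.7 TPM in double-negative, 645, 779 and 714 in CCR2-RFP and 169, 333 and 270.4 TPM in CX3CR1-GFP libraries.

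**Figure D1:**
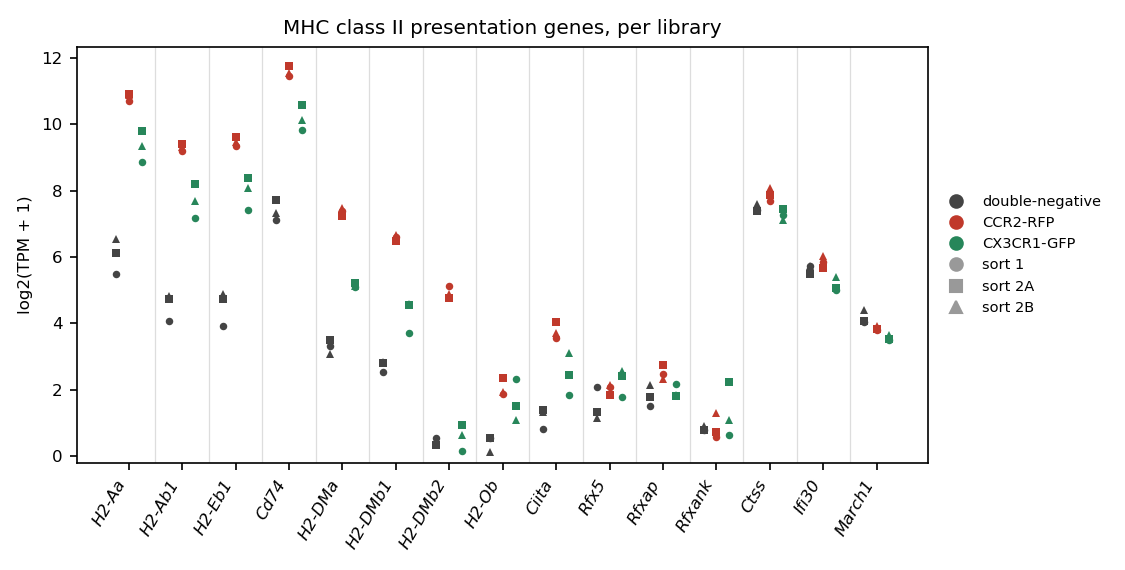
Genes of MHC class II presentation on the horizontal axis and log2(TPM + 1) on the vertical axis, 1 point per library, with colours for the 3 populations and shapes for the sort labels. The chain genes, Cd74, H2-DMa and H2-DMb1 lie in 3 steps, lowest in double-negative and highest in CCR2-RFP libraries, whereas H2-DMb2 is near 0 in CX3CR1-GFP as in double-negative libraries.

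Of the 15 class II presentation genes tested 9, the sorted chains H2-Aa, H2-Ab1 and H2-Eb1 among them, were higher in MHC class II positive cells (the mean of both population means against the double-negative mean), 1 was lower and 5 did not pass. Over all genes tested 6.85% were called higher and 5.84% lower in that comparison, and the median difference was 0.04 (log2) against 1.93 for the list. Leaving out the 3 chain genes, whose protein the gate used, 6 of 12 were higher, with a median of 1.03. H2-DMa, a chain of the peptide loader (chromosome 17, 34119541 to 34139101), was 8.97, 10.4 and 7.42 TPM in double-negative, 167, 150.2 and 178 in CCR2-RFP and 33.1, 36.2 and 33.7 TPM in CX3CR1-GFP libraries, with no overlap between any of the 3 populations. It was higher by 2.96 ± 0.13 (log2, SE) in the 6 positive libraries (limma adjusted p = 4.56e-06). The 2 beta chain copies of the loader parted: H2-DMb1 was 5.69 ± 0.760, 95.6 ± 6.08 and 19.2 ± 6.22 TPM in double-negative, CCR2-RFP and CX3CR1-GFP cells, and H2-DMb2 was 0.372 ± 0.102, 29.6 ± 3.74 and 0.527 ± 0.411 TPM. H2-DMb2 was thus called in CCR2-RFP cells (4.47, adjusted p = 2.18e-06) and not in CX3CR1-GFP cells (0.12, adjusted p = 0.862), and the difference between these was called (-4.35, adjusted p = 2.57e-06). These copies are similar in sequence, so how reads were split between them is uncertain. H2-DMb2 also passed the filter through the CCR2-RFP libraries alone.

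Ciita, the switch of the class II genes, was 0.771, 1.62 and 1.50 TPM in double-negative, 10.7, 15.4 and 12.1 in CCR2-RFP and 2.57, 4.41 and 7.58 TPM in CX3CR1-GFP libraries. All 6 positive values lay above all 3 double-negative ones, and the gene was called over both populations (1.93 ± 0.27, limma adjusted p = 0.00111) and in CCR2-RFP cells, while the averaged call was lost when the 6 libraries were fitted as 1 group (adjusted p = 0.0832) or tested against a 2-fold change (adjusted p = 0.246), and in CX3CR1-GFP cells alone it did not pass (1.28, adjusted p = 0.0647). H2-Ob, a chain of the H2-O protein that restrains the loader, was 0.470, 0.448 and 0.0816 TPM, 2.65, 4.07 and 2.79 TPM and 4.0, 1.82 and 1.11 TPM in the same order (1.44, adjusted p = 0.00579), with a call that was lost in the same pair of settings. The CIITA partners Rfx5, Rfxap and Rfxank, at double-negative means of 1.99, 2.58 and 0.766 TPM, were not called over both populations. Nor were cathepsin S (Ctss), which trims the invariant chain, at 178 ± 14.3, 236 ± 32.7 and 155 ± 17.9 TPM, or Ifi30, a thiol reductase of the endosome, at 49.3 ± 5.05, 56.9 ± 7.20 and 35 ± 5.38 TPM. The 1 lower gene was March1, a ubiquitin ligase that removes class II molecules from the surface. It was 15.4, 15.9 and 20.4 TPM in double-negative libraries and 10.4 to 14.2 TPM in the other 6 (-0.47, adjusted p = 0.0450). That call is marginal: it was lost with the replicate block and when any 1 of the 9 libraries was left out.

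Letters of the upstream module that CIITA and RFX use can be seen in the promoters of the chain genes H2-Aa and H2-Eb1. No promoter entry was available for H2-Ab1 or Cd74. RefSeq promoters (GRCm38.p6, 250 bases before the start) were matched for 7609 of the 10136 genes tested, with more than 1 start for some of them, and for 44 of the 63 genes called higher in both positive populations and 71 of the 97 called lower in both; H2-Aa and H2-Eb1 are shown as the genes that carry the largest class II change. The capitals mark GCAAC, letters of the X box, and CTGATTGG, the Y box with its reversed CCAAT, in the last 150 bases before the start (chr17:34287824-34287973, minus strand, and chr17:34305717-34305866, plus strand).
H2-Aa: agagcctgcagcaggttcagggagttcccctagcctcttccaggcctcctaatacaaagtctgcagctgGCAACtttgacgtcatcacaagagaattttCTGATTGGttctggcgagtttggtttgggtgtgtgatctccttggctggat
H2-Eb1: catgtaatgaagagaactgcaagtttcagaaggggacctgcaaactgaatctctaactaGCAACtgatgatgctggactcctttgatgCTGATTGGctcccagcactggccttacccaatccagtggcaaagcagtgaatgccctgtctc
The letters stand 25 bases apart in H2-Aa and 24 in H2-Eb1. This arrangement (GCAAC, then CTGATTGG within 40 bases, either strand; spelled out after these promoters were viewed) was present in 0.268% of the 9719 promoters of tested genes, in 2 of 53 promoters of genes higher in both populations, which were these, and in 0 of 96 promoters of genes lower in both. The promoters of H2-DMa and H2-DMb1, also higher in both, held GATTGG but not this arrangement. GATTGG alone, which lies within CTGATTGG, was no more frequent among higher genes (17% of promoters) than among all (18.4%).

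Among all genes, the comparison of 6 libraries with 3 called 694 genes higher (6.85%) and 592 lower (5.84%) in MHC class II positive cells. Without overlap between the groups were 401 genes with the double-negative values below (3.96% of the genes tested) and 507 with them above (5%). Of the 694 higher genes 273 had no overlap, and of the 592 lower genes 370. Most of the calls were carried by CCR2-RFP cells: 601 of the higher and 456 of the lower genes were called in the same direction in CCR2-RFP cells alone, 21 and 25 in CX3CR1-GFP cells alone, and 63 and 97 in both. Set against double-negative cells on their own, CCR2-RFP cells had 14.9% of genes higher and 9.88% lower, and CX3CR1-GFP cells 1.16% higher and 1.61% lower. The populations also differed from each other, with 8.96% of genes higher and 17.3% lower in CX3CR1-GFP than in CCR2-RFP cells. When the 6 libraries were fitted as 1 group, so that this difference entered the spread, 41 genes were called higher and 60 lower.

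A narrower reading of the comparison takes the genes that were called in each positive population, in 1 direction, with no overlap: 63 higher (0.622%) and 97 lower (0.957%). Both populations were compared with the same 3 double-negative libraries, so their values are given side by side and no overlap between them is read as a result. The 63 higher genes had a median difference of 2.16 (log2) in CCR2-RFP cells and of 1.42 in CX3CR1-GFP cells, and 50 exceeded 2-fold in both. The 97 lower genes had medians of -1.76 and -1.28, and 64 exceeded 2-fold in both. In the direct comparison 35 of the 63 higher genes were lower in CX3CR1-GFP than in CCR2-RFP cells, 2 were higher and 26 were not called. Of the 97 lower genes 31 were higher in CX3CR1-GFP cells, 4 were lower and 62 were not called. The sizes of both sets fell by similar amounts whichever double-negative library was left out. Such counts do not show whether a single library carried particular genes. Each such fit kept 2 double-negative libraries and tested fewer genes (9976, 9975 and 9974 without 1, 2A and 2B). Left out in turn, double-negative 1, 2A and 2B gave 39, 35 and 41 genes higher and 38, 36 and 43 lower, and without CX3CR1-GFP 2A 59 genes were lower. Under the alternative settings tried, other than the fit of 2 groups, the test against 2-fold and the one chosen after seeing the data, 24 of the 63 and 23 of the 97 stayed in their set. A gene that missed the filter in a setting counted here as lost. Among the genes below, all of the 15 named in each direction by size did so, other than Gpr65 and Rgs1 (higher) and Ccl8 and Folr2 (lower).

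**Figure D2:**
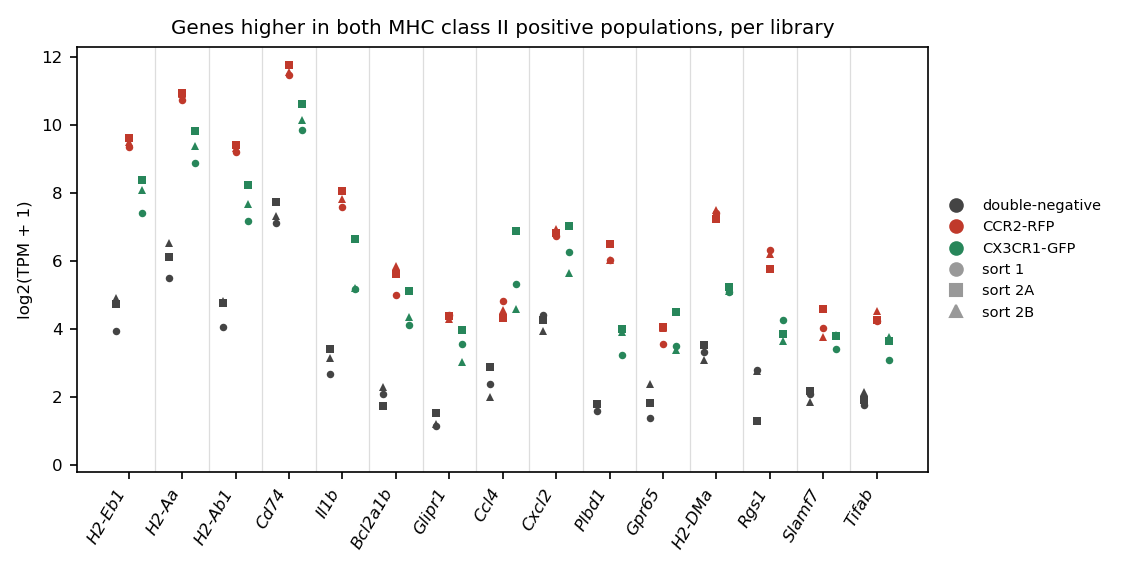
The 15 named genes higher in both positive populations on the horizontal axis and log2(TPM + 1) on the vertical axis, 1 point per library, colours for populations and shapes for sort labels. Every CCR2-RFP and CX3CR1-GFP point lies above all 3 double-negative points of its gene, and for Ccl4, Cxcl2 and Gpr65 the highest point is the CX3CR1-GFP library of sort 2A.

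The cytokine Il1b and chemokines were among the genes that rose in both. Of 18 chemokines tested 4 were higher and 4 lower over both, with a list median of 0.08, and 3 were higher and 2 lower in both. The shares of all genes were 6.85% higher and 5.84% lower over both, and 0.622% and 0.957% in both. Il1b, the secreted cytokine interleukin 1 beta (chromosome 2, 129364570 to 129371139), was 5.31, 9.49 and 7.78 TPM in double-negative, 191, 265 and 225 in CCR2-RFP and 35, 98.5 and 35.8 TPM in CX3CR1-GFP libraries. The groups were far apart, with a difference of 4.76 in CCR2-RFP (limma adjusted p = 1.01e-05) and 2.61 in CX3CR1-GFP cells (adjusted p = 0.00391). Cxcl2, a chemokine for neutrophils (chromosome 5, 90903871 to 90905938), was 20.4, 18.2 and 14.2 TPM, 104, 111 and 121 TPM and 75.8, 128 and 48.7 TPM in the same order, and the positive populations were not called apart (-0.51, adjusted p = 0.227). Ccl4, a chemokine, was 4.16, 6.27 and 2.96 TPM, 26.9, 19 and 22.4 TPM and 38.4, 116 and 22.7 TPM, so that its highest value was in the CX3CR1-GFP library of sort 2A. Cxcl10, a ligand of CXCR3, went from 0.803, 0.462 and 1.25 TPM to 9.15, 7.33 and 16.8 TPM and 4.04, 6.87 and 4.19 TPM. Its call in CX3CR1-GFP cells (adjusted p = 0.0178) was lost without double-negative 1, double-negative 2A or CX3CR1-GFP 2A. Of 12 cytokines and mediators tested 4 were higher and 0 lower, of which Il1b was called in both populations. The 0 of 12 lower is near the 5.84% of all genes. Il1a was 0.304 to 2.25 TPM in double-negative and 2.46 to 16.2 TPM in the other 6 libraries, and Tnf 3.11 to 4.81 and 6.11 to 15.2 TPM. Their calls over both populations were lost without double-negative 1, double-negative 2B or CCR2-RFP 2B for Il1a and without double-negative 2A or 2B for Tnf. Il1rn, the receptor antagonist that blocks interleukin 1, was the fourth, at 1.20 ± 0.718, 32 ± 2.96 and 1.63 ± 1.50 TPM, a rise in CCR2-RFP cells (3.96, adjusted p = 8.41e-05) with no call in CX3CR1-GFP cells (0.11, adjusted p = 0.936).

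Of 19 genes tested of the NF-kB circuit, which IL-1 and Toll-like receptors drive, 5 were higher and 0 lower, with a list median of 0.40. Of all genes 6.85% were higher and 5.84% lower in this comparison, so 0 of 19 lower is near the overall share. Tnfaip3 (A20, a deubiquitinase that shuts the pathway off) was 10.3, 9.17 and 8.56 TPM in double-negative, 39.2, 44.4 and 42.9 in CCR2-RFP and 20.8, 32 and 20.3 TPM in CX3CR1-GFP libraries, a difference over both of 1.67 ± 0.16 (limma adjusted p = 1.83e-04). Nfkbia, the inhibitor IkB alpha, was 66.2, 45.9 and 56.1 TPM, 124, 149 and 131 TPM and 105, 115 and 80.2 TPM. Its call in CX3CR1-GFP cells (0.82, adjusted p = 0.0410) was lost with the replicate block and without any 1 of the 9 libraries other than CX3CR1-GFP 2B. The subunit Rel was 4.65 to 6.24 TPM in double-negative and 8.56 to 15.7 TPM in positive libraries, with limma adjusted p = 0.0709 in CX3CR1-GFP cells. Tnip3, an inhibitor that binds A20, was at 77.2 TPM in CCR2-RFP cells alone (1.95 ± 2.39 and 1.26 ± 1.16 TPM in the other 2 populations). Among 23 immediate-early and heat shock genes, which tissue digestion is known to induce, 4 were higher and 1 lower, with a median of 0.06. All double-negative values lay below the other 6 for 3 of them, against 3.96% of all genes. The immediate-early genes Nr4a1 and Egr2 were higher over both (1.18 and 0.66, limma adjusted p = 0.00213 and 0.0192). In CX3CR1-GFP cells alone they did not pass (adjusted p = 0.105 and 0.462). Fos was 1327 ± 55.9, 1132 ± 235 and 1715 ± 262 TPM in double-negative, CCR2-RFP and CX3CR1-GFP cells. The part of digestion in these values was not tested.

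Among the 53 promoters of genes higher in both populations, 2 held the letters of the NF-kB site on either strand, against 0.37% of all 9719 promoters and 0 of the 96 of lower genes. They belong to Cxcl2 and Nfkbia, and the capitals mark the match (chr5:90903792-90903821, 97 bases before the start, and chr12:55492657-55492686, minus strand, 29 bases before the start, where the match is on the opposite strand).
Cxcl2: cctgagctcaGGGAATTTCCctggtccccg
Nfkbia: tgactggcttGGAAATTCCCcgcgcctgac
GAGGAAGT, letters read by the myeloid factor PU.1, stood in 7 of the 53 (13.2%), in 2.79% of all promoters and in 4.17% of those of lower genes. Of these 7, 3 belong to neighbouring copies of 1 gene, Bcl2a1a, Bcl2a1b and Bcl2a1d, and repeat a single sequence almost letter for letter, so they are not separate cases. They are shown beside Atp8b4, a lipid flippase gene with no such relation (chr9:89199115-89199144, chr9:88956806-88956835, chr9:88731935-88731964 and chr2:126491649-126491678, the last 2 on the minus strand, matches in capitals).
Bcl2a1b: agaagaggaaGAGGAAGTggtgtgttgctc
Bcl2a1a: agaagaggaaGAGGAAGTggtgtgttgctc
Bcl2a1d: tgaatcagaaGAGGAAGTggtgtgttgctc
Atp8b4: gtggcttgtgGAGGAAGTgccatatgagtt
TGCTGAC, letters of the site that MAF factors bind, stood in 5.66% of promoters of higher genes, 4.17% of those of lower genes and 3% of all. A match describes these letters only, on either strand, and binding was not measured.

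The Bcl2a1 copies encode A1, a protein that blocks apoptosis. Bcl2a1b was 3.27, 2.29 and 3.90 TPM in double-negative, 30.7, 47.5 and 56.3 in CCR2-RFP and 16.3, 33.3 and 19.2 TPM in CX3CR1-GFP libraries, and Bcl2a1d was 1.25 ± 0.190, 33.9 ± 1.87 and 5.96 ± 2.20 TPM. Because the copies are near-identical, the rise is read for the family and the split between its members is uncertain. The cells had been kept in a caspase inhibitor in all groups.

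Further genes were higher in both populations. Slamf7, a receptor of the SLAM family, was 3.23, 3.48 and 2.58 TPM in double-negative, 15.4, 23 and 12.6 in CCR2-RFP and 9.51, 12.7 and 13 TPM in CX3CR1-GFP libraries, and the positive populations were not called apart (-0.47, limma adjusted p = 0.168). Icosl, the ligand of the T cell costimulator ICOS, was 4.12, 2.86 and 2.63 TPM, 18.5, 14.9 and 15.7 TPM and 10.1, 9.60 and 6.12 TPM, with a call in CX3CR1-GFP cells (adjusted p = 0.0190) that was lost without double-negative 2A, double-negative 2B, CX3CR1-GFP 1 or CX3CR1-GFP 2A. Of 9 costimulation and checkpoint genes tested 3 were higher and 0 lower, against 6.85% and 5.84% of all genes, so 0 of 9 lower is near the overall share. The third, Cd80, a ligand of CD28, was 4.28 to 4.95 TPM in double-negative and 7.03 to 19 TPM in positive libraries, with adjusted p = 0.0961 in CX3CR1-GFP cells. The related Cd86 was 43.5 ± 4.51, 21.7 ± 4.12 and 44.3 ± 6.06 TPM and was not called over both.

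Clec7a (dectin-1, a receptor for fungal glucans) was 6.95 to 8.24 TPM in double-negative and 15.8 to 24.1 TPM in positive libraries (means of 20.0 ± 3.71 TPM for CCR2-RFP and 19.5 ± 3.96 for CX3CR1-GFP). Mpeg1, a pore-forming protein of phagocytes, was 18.3, 31.3 and 23.3 TPM, 130.1, 175 and 144 TPM and 58.4, 81.8 and 64.6 TPM. Plbd1, a lysosomal phospholipase B-like protein, was 1.97, 2.43 and 2.46 TPM in double-negative, 63.8, 89.6 and 64.1 in CCR2-RFP and 8.29, 14.8 and 13.9 TPM in CX3CR1-GFP libraries, the widest gap of these 3 genes. Glipr1 was 1.22, 1.88 and 1.28 TPM, 20.0, 19.7 and 18.3 TPM and 10.6, 14.5 and 7.10 TPM in the same order. The acid-sensing receptor Gpr65 was 1.60, 2.55 and 4.24 TPM, 10.6, 15.5 and 15.2 TPM and 10.2, 21.3 and 9.31 TPM, with means of 13.8 ± 2.73 and 13.6 ± 6.67 TPM in the positive populations. Rgs1, which dampens chemokine receptor signals, was 5.84, 1.42 and 5.77 TPM, 78.2, 52.6 and 72.1 TPM and 18, 13.3 and 11.4 TPM. The CX3CR1-GFP call was lost without any 1 of the 9 libraries for Rgs1 (adjusted p = 0.0476 with all) and without double-negative 1 or 2A for Gpr65. For Rgs1 it was also lost with a pseudocount of 0.1, median-of-ratios scaling or no intensity trend. Tifab, a regulator of the TRAF6 pathway, was 2.36 to 3.41 TPM in double-negative and 7.38 to 22.1 TPM in positive libraries.

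Axl and Pdgfb were the 2 shared genes that stood higher in CX3CR1-GFP than in CCR2-RFP cells. Axl, a receptor tyrosine kinase that binds dying cells through GAS6, was 0.566, 0.670 and 1.31 TPM in double-negative, 2.62, 2.50 and 2.86 in CCR2-RFP and 10.7, 20.8 and 8.78 TPM in CX3CR1-GFP libraries (1.89 between the positive populations, limma adjusted p = 9.58e-04). Pdgfb, a chain of platelet-derived growth factor, was 0.939 ± 0.114, 1.96 ± 0.156 and 4.03 ± 0.944 TPM in that order. Genes of apoptotic cell uptake were called in both directions: of 16 tested 3 were higher and 7 lower, against 6.85% and 5.84% of all genes. Mertk, the related receptor, was 18.1, 18.5 and 18.7 TPM, 6.25, 3.89 and 4.93 TPM and 14.9, 14.1 and 16.1 TPM, a fall in CCR2-RFP cells (-1.71, adjusted p = 5.14e-05) with adjusted p = 0.495 in CX3CR1-GFP cells. The ligand gene Gas6 was 66.5, 66.8 and 59.5 TPM, 11.8, 4.71 and 7.13 TPM and 39.8, 31 and 35.6 TPM, and Pros1 (protein S, a ligand of MERTK) 32.5 ± 1.87, 14.2 ± 0.398 and 13.7 ± 3.52 TPM, lower in both. Itgav, the integrin subunit that binds the bridging protein MFG-E8, was higher in both (2.88 ± 0.850, 12 ± 2.51 and 9.35 ± 1.79 TPM). Timd4, the phosphatidylserine receptor TIM-4, was 26.1, 26.1 and 23.9 TPM, 4.22, 1.22 and 3.31 TPM and 11.5, 8.39 and 7.60 TPM.

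**Figure D3:**
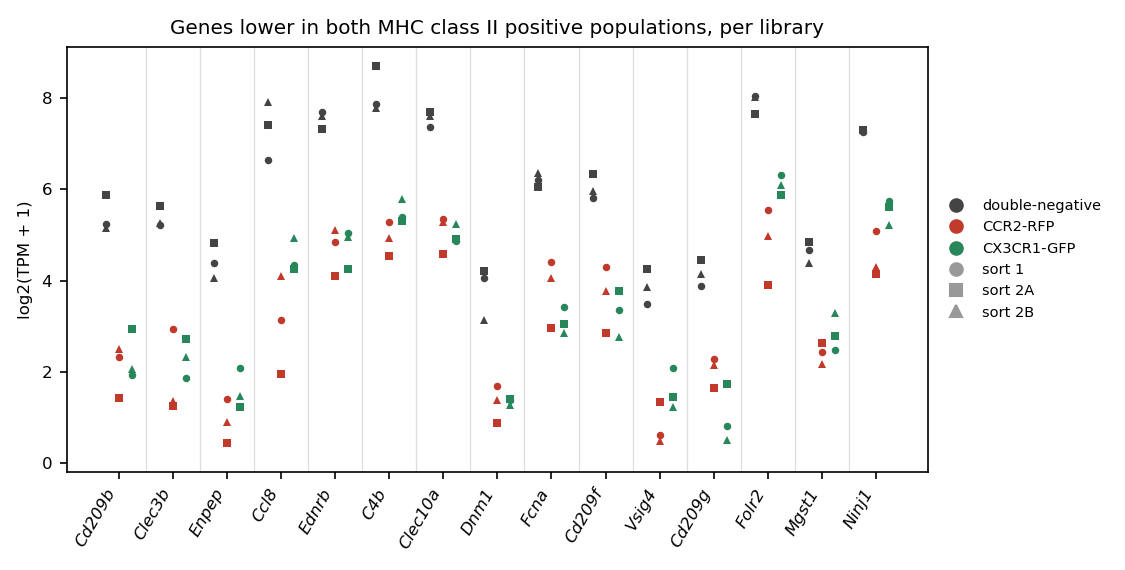
The 15 named genes lower in both positive populations on the horizontal axis and log2(TPM + 1) on the vertical axis, 1 point per library, colours for populations and shapes for sort labels. All 3 double-negative points lie above the other 6 for every gene. The CCR2-RFP and CX3CR1-GFP points overlap for several genes, among them Cd209b, Ednrb, Clec10a, Dnm1, Clec3b, Fcna, Enpep and Vsig4.

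C-type lectins were among the genes that fell most in both. Cd209b (SIGN-R1, which binds polysaccharides of microbes, chromosome 8, 3917655 to 3926844) was 36.8, 57.6 and 34.5 TPM in double-negative, 4.0, 1.68 and 4.65 in CCR2-RFP and 2.77, 6.60 and 3.15 TPM in CX3CR1-GFP libraries. The difference was -3.34 in CCR2-RFP (limma adjusted p = 6.83e-05) and -3.12 in CX3CR1-GFP cells (adjusted p = 0.00156), and 0.22 between them (adjusted p = 0.694). Its neighbours Cd209f and Cd209g on chromosome 8 were 54.9 to 79.9 and 13.7 to 20.9 TPM in double-negative and 5.72 to 18.7 and 0.420 to 3.88 TPM in positive libraries, and Cd209d went from 66.7 ± 34.5 TPM to 28.1 ± 3.83 and 5.13 ± 1.35 TPM. Cd209a, of the same cluster, was higher in CCR2-RFP cells and is described with the opposed genes. The family members are similar in sequence, so how reads were shared among them is uncertain. Clec10a (MGL1, a galactose lectin) was 165, 207 and 195 TPM, 40.1, 22.8 and 37.9 TPM and 28.2, 29.3 and 36.9 TPM, with no call between the positive populations (-0.06, adjusted p = 0.864). Clec3b, the secreted lectin tetranectin, was 36.5, 48.6 and 37.4 TPM, 6.61, 1.36 and 1.55 TPM and 2.64, 5.53 and 4.01 TPM.

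Of 24 scavenger and lectin receptors tested 12 were lower and 2 higher over both populations, against 5.84% and 6.85% of all genes. Colec12, a scavenger receptor with a collagen-like stem, was 56.5, 56.5 and 54 TPM in double-negative, 3.38, 1.64 and 1.43 in CCR2-RFP and 28, 19.2 and 20.1 TPM in CX3CR1-GFP libraries, a graded fall with no overlap between any populations. Folr2, a folate receptor typical of perivascular macrophages, was 265, 200.1 and 261 TPM, 45.7, 14 and 30.6 TPM and 79.2, 57.5 and 67.2 TPM. The haemoglobin receptor Cd163 was 154 ± 4.02, 46.6 ± 4.19 and 131 ± 11.2 TPM and the mannose receptor Mrc1 348 ± 16.7, 114 ± 4.95 and 303 ± 38.8 TPM. For these 2 genes no positive value reached the double-negative range, yet CX3CR1-GFP cells on their own did not pass (adjusted p = 0.410 and 0.505). The hyaluronan receptor Lyve1 was not called (805 ± 78.9, 501 ± 100.1 and 637 ± 232 TPM). The calls of Timd4, Colec12 and Folr2 in CX3CR1-GFP cells were each lost without any 1 of the double-negative libraries and without CX3CR1-GFP 2A or 2B.

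Of 28 resident macrophage genes tested 23 were lower in positive cells, 0 were higher and 5 did not pass, against 5.84% of all genes lower. The list median was -1.35 over both, -2.30 for CCR2-RFP and -0.58 for CX3CR1-GFP cells. All 3 double-negative values were above the other 6 for 18 of the 28, against 5% of all genes. In the direct comparison 20 of the 28 were higher in CX3CR1-GFP than in CCR2-RFP cells, against 8.96% of all genes. Selenop, the secreted selenoprotein P, was 1439, 1353 and 1677 TPM in double-negative, 248, 147 and 218 in CCR2-RFP and 832, 713 and 796 TPM in CX3CR1-GFP libraries. Ninj1, a membrane protein of lytic cell death, was 152, 157 and 156 TPM, 33.1, 16.7 and 18.8 TPM and 53.1, 48.1 and 36.4 TPM. Ccl8, a chemokine for monocytes, was 98.7, 171 and 242 TPM, 7.83, 2.86 and 16 TPM and 19.3, 18.1 and 29.6 TPM, spread widely within each population but with none of the 6 near the lowest double-negative value. By contrast Maf, a transcription factor of resident macrophages, was 165 ± 13.7, 31.2 ± 6.14 and 167 ± 19.4 TPM in the 3 populations, so its call over both (-1.18, limma adjusted p = 5.03e-04) came from CCR2-RFP cells. The CX3CR1-GFP call was lost without any 1 of the double-negative or CX3CR1-GFP libraries or CCR2-RFP 2B for Selenop, and without double-negative 2A, double-negative 2B or CX3CR1-GFP 2A for Ccl8. That of Selenop was also lost with median-of-ratios scaling and with no intensity trend.

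Components and receptors of complement were often among the lower genes: of 22 tested 11 were lower and 1 (Itgax) higher, with 7 lower in both populations. Of all genes 5.84% were lower and 6.85% higher, and 0.957% were lower in both. C4b, a component of the classical and lectin routes (chromosome 17, 34728380 to 34743882), was 236, 419.7 and 219.6 TPM in double-negative, 38.2, 22.1 and 29.4 in CCR2-RFP and 41.1, 38.6 and 54.8 TPM in CX3CR1-GFP libraries. Reads of C4b may be shared with its near-identical neighbour. C6, which forms part of the membrane attack complex, was 4.93, 9.36 and 8.10 TPM, 0.532, 0.386 and 0.608 TPM and 0.705, 0.698 and 0.464 TPM, and Cfb, the protease of the alternative route, 8.44 ± 3.18, 0.654 ± 0.513 and 0.653 ± 0.161 TPM. C6 passed the filter through the double-negative libraries alone, so it could be tested only because it was higher there. Vsig4, a receptor for C3 fragments, was 10.2, 18 and 13.4 TPM, 0.511, 1.53 and 0.392 TPM and 3.21, 1.70 and 1.34 TPM, and Fcna, the ficolin that starts the lectin route, 72.8, 65.7 and 81.7 TPM, 20.1, 6.78 and 15.5 TPM and 9.67, 7.20 and 6.24 TPM. The first component stayed abundant in CX3CR1-GFP cells: C1qc was 337, 352 and 321 TPM in double-negative, 78, 67.8 and 77.6 in CCR2-RFP and 246, 224 and 198 TPM in CX3CR1-GFP libraries. C1qb was 269.9 ± 1.12, 109.9 ± 5.69 and 183 ± 6.68 TPM. The C1qc call in CX3CR1-GFP cells (-0.60, limma adjusted p = 0.0390) was lost with the replicate block and without any 1 of the 9 libraries other than CCR2-RFP 2A. That call was also lost with median-of-ratios scaling and with no intensity trend. The same held with TPM rescaled without Siglece, Rn18s, mitochondrial and ribosomal protein genes.

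Iron and lysosome genes fell as well, with more of them called in CCR2-RFP than in CX3CR1-GFP cells. Of 16 iron and haem genes tested 10 were lower and 0 higher, against 5.84% and 6.85% of all genes, with a median of -0.82. In CCR2-RFP cells 12 were lower and in CX3CR1-GFP cells 3, against 9.88% and 1.61% of all genes. The list medians were -1.47 and -0.54 in these populations. Hmox1, which opens the haem ring, was 93.9, 74.5 and 84.9 TPM in double-negative, 31.7, 27.3 and 38.8 in CCR2-RFP and 39.9, 37.6 and 38.4 TPM in CX3CR1-GFP libraries, with no call between the positive populations (0.25, limma adjusted p = 0.273). Slc40a1, the iron exporter ferroportin, was 33.8, 24.6 and 33 TPM, 1.10, 0.414 and 1.96 TPM and 12, 10.4 and 13 TPM, nearly off in CCR2-RFP cells alone. Tfrc, the transferrin receptor, was 46.1 ± 4.99, 8.52 ± 4.69 and 21.1 ± 1.25 TPM, and ferritin light chain Ftl1 619 ± 46.3, 384 ± 50.3 and 398 ± 23.7 TPM. Of 27 lysosome and cathepsin genes 13 were lower and 1 (Psap) higher. Ctsb, the protease cathepsin B, was 565, 532 and 583 TPM, 161, 132 and 188 TPM and 282, 298 and 321 TPM, and Ctsl, cathepsin L, 50.2 ± 10.2, 8.22 ± 3.14 and 19.4 ± 2.34 TPM. Lgmn, the endosomal protease legumain, was 197 to 219 TPM in double-negative and 39.6 to 184 TPM in positive libraries, with adjusted p = 0.321 in CX3CR1-GFP cells. The CX3CR1-GFP calls of Slc40a1 and Ctsl were lost without any 1 of the double-negative or of the CX3CR1-GFP libraries, and that of Ctsb without double-negative 1.

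Of 7 Fc receptor genes tested 3 were lower (Fcgr1, Fcgr2b and Fcgrt), 1 (Fcrls, 31.1 ± 5.44, 139 ± 13.7 and 37.9 ± 3.03 TPM) was higher and 3 did not pass. Of all genes 5.84% were lower and 6.85% higher. Fcgr2b, the inhibitory receptor for IgG, was 143, 149.7 and 155 TPM in double-negative, 89.7, 104 and 100.1 in CCR2-RFP and 85.8, 93.3 and 85.2 TPM in CX3CR1-GFP libraries, a small fall (-0.68 ± 0.10, limma adjusted p = 0.00166) with little spread. Fcgrt, the neonatal receptor that recycles IgG, was 159 ± 15.1, 18.9 ± 7.79 and 66.3 ± 7.66 TPM, and its call in CX3CR1-GFP cells was lost without any 1 of the double-negative or CX3CR1-GFP libraries or CCR2-RFP 1. That call was also lost with median-of-ratios scaling, with quantile normalization and with no intensity trend. Of 23 interferon-stimulated genes tested 12 were lower and 1 (Cxcl10) higher, with a median of -0.66. Irf7, the factor that amplifies type I interferon, was 2.63, 4.35 and 3.72 TPM, 0.705, 0.376 and 1.29 TPM and 0.404, 0.270 and 0.680 TPM, at or below 1.29 TPM in all 6 positive libraries. Ifit1 was 2.89 to 3.07 TPM in double-negative and 0.374 to 0.993 TPM in positive libraries, and Bst2 (tetherin) 12.7 to 14.5 and 4.14 to 9.04 TPM. Ifit1 passed the filter through the double-negative libraries alone, so it could be tested only because it was higher there.

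Further genes were lower in both populations. Ednrb, the endothelin B receptor (chromosome 14, 103814625 to 103844402), was 208, 160.1 and 195 TPM in double-negative, 27.5, 16.1 and 33.5 in CCR2-RFP and 32.1, 18.1 and 30.0 TPM in CX3CR1-GFP libraries, with differences of -2.87 and -2.80 from double-negative cells (limma adjusted p = 4.13e-05 and 9.61e-04). Enpep, the aminopeptidase that cuts angiotensin II, was 20.0, 27.3 and 15.7 TPM, 1.64, 0.337 and 0.856 TPM and 3.23, 1.32 and 1.75 TPM. Dnm1, the membrane-cutting GTPase dynamin 1, was 15.5, 17.5 and 7.83 TPM, 2.22, 0.814 and 1.58 TPM and 1.59, 1.62 and 1.40 TPM. Mgst1, a glutathione transferase, was 19.8 to 27.6 TPM in double-negative and 3.49 to 8.77 TPM in positive libraries. The eosinophil chemokine Ccl24 was 164, 176 and 146 TPM, 61.4, 49.6 and 48.5 TPM and 82.2, 75.5 and 63.1 TPM, and Timp2, an inhibitor of matrix proteases, 194, 204 and 197 TPM, 74.5, 73.4 and 70.6 TPM and 119, 108 and 126 TPM, with replicates closer together than in most genes named here.

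**Figure D4:**
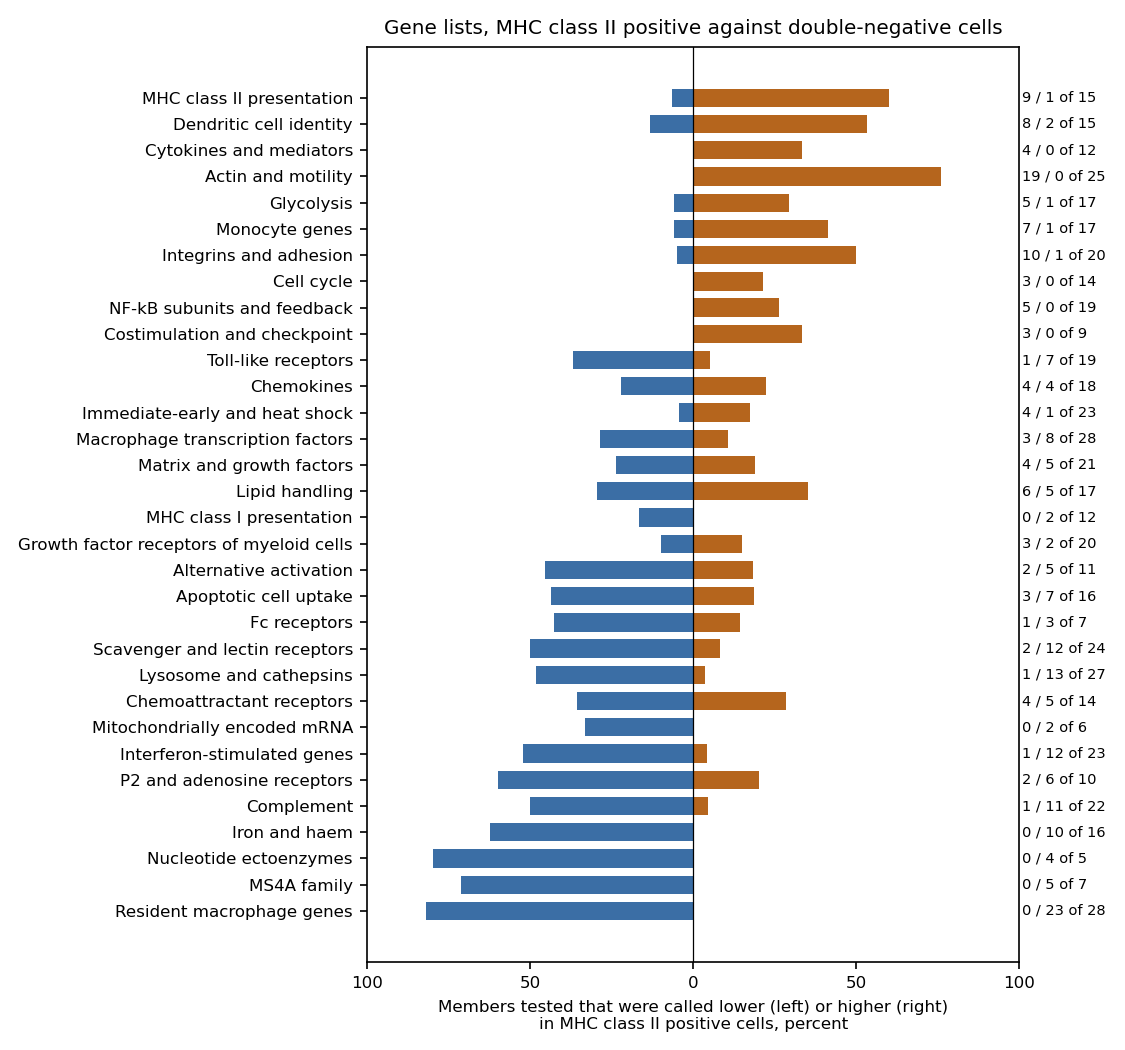
Share of tested members of each gene list called lower (left, blue) or higher (right, brown) in the 6 MHC class II positive against the 3 double-negative libraries, in percent, with the counts higher / lower of members tested at the right. Resident macrophage genes (23 of 28 lower) and actin and motility genes (19 of 25 higher) have the largest shares in their directions among lists of at least 20 tested genes. Of all genes tested 6.85% were called higher and 5.84% lower.

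Motility and adhesion genes differed between the positive populations. Of 25 actin and motility genes tested 19 were higher and 0 lower, against 6.85% and 5.84% of all genes. The median, though, was 1.48 for CCR2-RFP and 0.08 for CX3CR1-GFP cells, with 20 and 2 genes called higher, against 14.9% and 1.16% of all. In the direct comparison 20 of the 25 were lower in CX3CR1-GFP than in CCR2-RFP cells, against 17.3% of all. Lsp1, an F-actin binding protein of leukocytes, was 15.6 ± 3.89, 185 ± 5.83 and 20.7 ± 6.51 TPM in double-negative, CCR2-RFP and CX3CR1-GFP cells. Coro1a was 10.9 ± 2.19, 58.1 ± 1.72 and 17.5 ± 2.47 TPM and had no overlap between the 3 and the 6 libraries. Of 20 integrin and adhesion genes 10 were higher and 1 lower over both, 13 were higher in CCR2-RFP cells and 4 in CX3CR1-GFP cells. Cd44, the hyaluronan receptor, was 20.0, 16.5 and 17.4 TPM, 111, 117 and 103 TPM and 25.6, 28 and 21.7 TPM, so its 6 positive values were all above the double-negative ones although CX3CR1-GFP cells alone did not pass (0.46, limma adjusted p = 0.150). The tetraspanin Cd9 was higher in both (3.08 ± 0.577, 12.3 ± 2.25 and 6.71 ± 0.830 TPM), with a CX3CR1-GFP call (adjusted p = 0.0348) that was lost with the replicate block and without any 1 of the double-negative or CX3CR1-GFP libraries or CCR2-RFP 1.

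Genes of monocytes and dendritic cells, cells that can carry MHC class II themselves, also differed between the positive populations. Of 17 monocyte genes tested 7 were higher and 1 lower over both populations, against 6.85% and 5.84% of all genes. However, 13 were lower in CX3CR1-GFP than in CCR2-RFP cells, against 17.3% of all. The 21 genes of the list summed to 1728 to 2193 TPM in double-negative, 5539 to 6899 in CCR2-RFP and 1379 to 1551 TPM in CX3CR1-GFP libraries. Of 15 dendritic cell genes 8 were higher and 2 lower, with sums over the 19 listed genes of 297 to 380, 522 to 583 and 157 to 164 TPM. Id2, a factor needed for several dendritic cell lineages, was 5.12, 5.45 and 5.43 TPM, 68.3, 67.3 and 83 TPM and 9.87, 13.7 and 7.38 TPM, and Batf3, a factor of cross-presenting dendritic cells, 2.91 ± 0.384, 21.1 ± 2.91 and 4.95 ± 1.44 TPM. The growth factor receptor Flt3 was 0.0252 to 0.162 TPM in double-negative and 0.179 to 5.44 TPM in positive libraries. In CX3CR1-GFP cells alone Flt3 did not pass (0.60, limma adjusted p = 0.451). Its call over both was lost with a pseudocount of 5, with no filter on low values and without any 1 of the double-negative libraries. No gene of either list was at 0 in all libraries of a population, though the dendritic cell markers Xcr1 and Clec9a were below 1 TPM in all CX3CR1-GFP libraries, and how far dendritic cells or monocytes among the sorted cells contribute to the class II difference was not tested.

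Receptors for nucleotides, which name the series, were mostly lower over both. Of 10 P2 and adenosine receptors tested 6 were lower and 2 higher, against 5.84% and 6.85% of all genes. None was called in CX3CR1-GFP against double-negative cells. Of all genes 1.61% were lower and 1.16% higher there, so 0 of 10 is near the overall share. P2ry12, a receptor for ADP, was 34.6, 32.8 and 31.3 TPM in double-negative, 4.81, 2.26 and 4.19 in CCR2-RFP and 28.8, 28.4 and 30.0 TPM in CX3CR1-GFP libraries. All 6 lay below the double-negative values, narrowly in CX3CR1-GFP cells (-0.17, limma adjusted p = 0.757). P2rx4, an ATP-gated channel, was 27.5 to 29.6 TPM in double-negative and 17.5 to 23 TPM in positive libraries (means of 19.5 ± 1.86 TPM for CCR2-RFP and 20.1 ± 2.71 for CX3CR1-GFP). Its call over both (-0.51, limma adjusted p = 0.0256) was lost without any 1 of the double-negative libraries, CCR2-RFP 1 or CCR2-RFP 2A. Of 5 nucleotide ectoenzymes 4 were lower, and Cd38, which cleaves NAD, was lower in both (17.3, 23.1 and 17.6 TPM, 2.30, 1.03 and 1.01 TPM and 7.35, 5.48 and 8.80 TPM), with a CX3CR1-GFP call (adjusted p = 0.0197) that was lost without any 1 of the double-negative libraries and without CX3CR1-GFP 1 or 2A. Of 19 Toll-like receptors and their cofactors 7 were lower, 1 was higher and 11 did not pass, with a median of 0.10 over both. None of the 19 was lower in CX3CR1-GFP against double-negative cells, which is near the 1.61% of all genes. Tlr7, a sensor of single-stranded RNA, was 36.8 to 40.5 TPM in double-negative and 5.40 ± 1.21 in CCR2-RFP and 35 ± 0.922 TPM in CX3CR1-GFP cells.

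**Figure D5:**
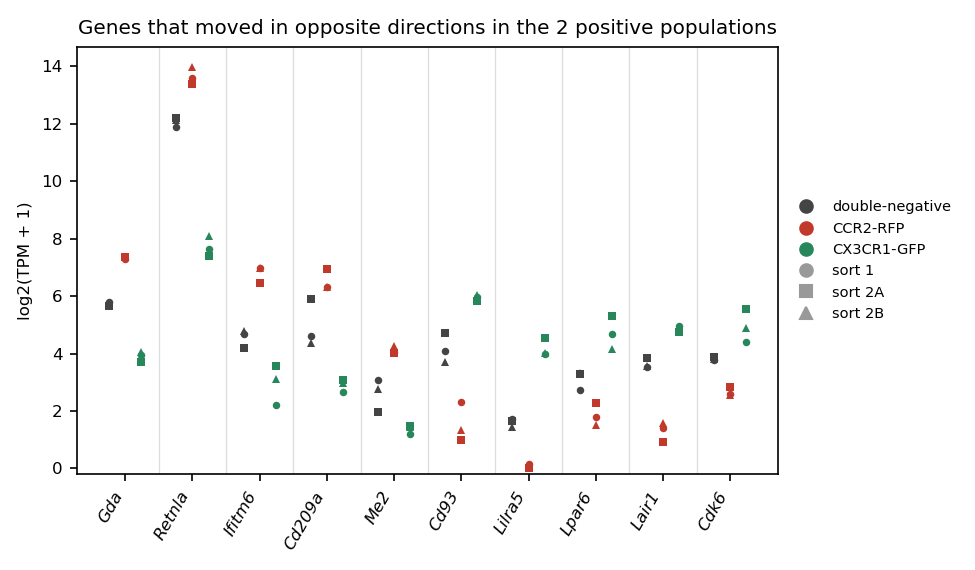
The 10 named genes called in opposite directions in the positive populations on the horizontal axis and log2(TPM + 1) on the vertical axis, 1 point per library, colours for populations and shapes for sort labels. For every gene the 3 double-negative points lie between the CCR2-RFP and the CX3CR1-GFP points.

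The average over both positive populations does not show genes that moved in opposite directions in them. Called higher in CCR2-RFP and lower in CX3CR1-GFP cells than in double-negative cells were 20 genes, and 9 were called the reverse way. Among the 10 named, the call against double-negative cells in CX3CR1-GFP cells was lost without at least 1 library for Ifitm6, Me2, Cd93, Lpar6, Lair1 and Cdk6, and for Ifitm6 and Me2 also with the replicate block. Retnla (RELM alpha, a secreted protein of alternative activation, chromosome 16, 48842551 to 48844461) was 3739.9, 4723 and 4432 TPM in double-negative, 12395, 10766 and 16041 in CCR2-RFP and 200.5, 167 and 269 TPM in CX3CR1-GFP libraries, and the average of both gave -1.38 (limma adjusted p = 7.71e-04), a direction that CCR2-RFP cells did not share. Gda, guanine deaminase, was 53.8, 49.8 and 52.6 TPM, 155, 161 and 165 TPM and 14.4, 11.9 and 15.5 TPM, which averaged to -0.12 (adjusted p = 0.604). Cd209a (DC-SIGN) was 23.6, 58.5 and 19.6 TPM, 79.2, 121 and 79.4 TPM and 5.30, 7.51 and 6.95 TPM. In the other direction Cd93, a receptor of the C-type lectin fold, was 16.1, 25.1 and 12.2 TPM, 3.97, 0.968 and 1.53 TPM and 61.4, 55.2 and 65.5 TPM. Lair1, an inhibitory receptor for collagen, was 10.7, 13.4 and 10.8 TPM, 1.64, 0.917 and 2.01 TPM and 30.1, 26 and 26.6 TPM.

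The rule on overlap has an edge, and its nearest genes are given as a description. Just inside, the highest double-negative value of Prkcd was 11.2 TPM (sort 2A) and the lowest of the other 6 also rounds to 11.2 TPM, and the lowest double-negative value of Tpr was 28.9 TPM against 28.8 TPM. Just outside, Pip4k2a had a highest double-negative value of 17.4 TPM and 1 CX3CR1-GFP library at the same rounded value, and for Vsir 1 CX3CR1-GFP library lay just above the lowest double-negative value, both rounding to 45.3 TPM.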

How the data were processed

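Each library is a column of TPM, a unit the authors deposited per gene symbol. The tools named are Salmon 0.11.3, cutadapt 1.8.3 and bcl2fastq 2.18, with the build mm10, per the submitters' processing notes. Libraries came from 1 ng of total RNA with a low-input kit and paired reads of 75 bases, per the labels' protocols. No source used here gives the annotation, the strand of counting or how transcripts were summed to genes. Coordinates are from GENCODE M21 (GRCm38, 1-based), which holds 24700 of the 28764 symbols (85.9%).

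Values were analysed as log2(TPM + 1), with a pseudocount of 1, in R 4.3.3 with limma 3.58.1. The filter was 1 TPM or more in 3 or more of the 9 libraries. A gene high in 1 population alone could pass it, whereas a gene equally low in all was not tested. The model held 1 mean for each population over all 9 libraries, with moderated variances that follow the trend of intensity, and contrasts were tested two-sided with Benjamini-Hochberg adjustment over the 10136 genes. The main contrast is the mean of the CCR2-RFP and CX3CR1-GFP means minus the double-negative mean. No 2 libraries held the same values (at most 0.00987% of values equal).

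The genes, the 42 gene lists and the rules were chosen with earlier results of these data known. The rule for naming took, in each direction, the 15 genes called in both populations without overlap, with a mean of at least 10 TPM where they are higher, that had the largest value of the smaller of the 2 differences, all class II genes tested, up to 4 members without overlap of each other list, and up to 5 opposed genes each way. Other genes named were chosen after their values were seen. Lists are described by counts, with no set test.

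Sort labels were read as mice from the design. Same-labelled libraries deviated together with r of 0.0315 to 0.205 over 9 pairs, and differently labelled ones with -0.160 to 0.112 over 18. Where labels do not mean separate animals, p-values measure the spread between these samples only. Alternatives, 20 in all, were other pseudocounts, filters and scalings, a replicate block, no intensity trend, a fit of 2 groups, a test against a 2-fold change, and leaving out each library in turn. One more, without the sort 2A libraries of both positive populations, was chosen after seeing the data. No column of the table was left unused (0).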

Additional observations from a re-analysis of the deposited data

Results flagged for a closer look

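For the 10 named opposed genes the effects against double-negative cells had opposite signs, and the test of the difference itself (CX3CR1-GFP minus CCR2-RFP, log2, limma) was called for each. These genes were chosen because both effects were called, with opposite signs, in the same values. A called difference, here and under the settings below, follows largely from that choice and is no separate support. The difference was -3.44 for Gda, -5.94 for Retnla, -3.84 for Ifitm6, -3.62 for Cd209a and -2.75 for Me2, with adjusted p of 6.69e-07, 5.56e-07, 2.32e-05, 5.25e-05 and 5.11e-05. It was 4.40 for Cd93, 4.11 for Lilra5, 2.85 for Lpar6, 3.52 for Lair1 and 2.27 for Cdk6, with adjusted p of 1.40e-05, 2.57e-06, 1.01e-04, 2.92e-06 and 1.14e-04. In each case all 3 libraries of one population lay above and all 3 of the other below the double-negative libraries. These 10 calls of the difference held in all settings run, whereas of the 20 settings run for each the call in CX3CR1-GFP against double-negative cells was lost in 13 for Me2 and for Cdk6, 8 for Cd93, 7 for Ifitm6 and for Lpar6, 3 for Lair1 and 2 for Cd209a. The call in CCR2-RFP cells was lost in 4 for Lpar6, and in 1, the test against a 2-fold change, for Retnla, Cd209a, Me2, Lilra5 and Cdk6.

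Genes that changed in 1 direction in both populations could still differ in size. Of the 63 higher genes 37, and of the 97 lower genes 35, had effects that differed between CX3CR1-GFP and CCR2-RFP cells by the same test.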

How the results depend on the processing

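Among the genes named by rule, no call changed direction under the settings run. With all libraries and the settings of the report, 694 genes were higher and 592 lower in the averaged comparison, 63 and 97 were shared, and 2666 differed between the positive populations. With no filter on low values the averaged comparison called 461 genes higher, and the shared sets held 36 higher and 49 lower genes. Fitted as 2 groups, 6 libraries against 3, 41 genes were higher and 60 lower, of which 39 and 59 belonged to the 63 and 97 shared genes. Tested against a 2-fold change, 40 were higher and 28 lower, 5 and 7 were shared, and 369 differed between the positive populations. With single libraries left out, the averaged counts ranged from 406 to 704 higher and from 351 to 597 lower (426 and 351 without double-negative 1, 406 and 360 without double-negative 2A), the shared counts from 35 to 62 higher and from 36 to 89 lower (both lowest without double-negative 2A), and genes that differed between the positive populations from 1840 to 2548. The averaged higher count also moved by more than 1.5 times, to 461, 460 and 449 without CCR2-RFP 1, 2A and 2B. With the replicate block the counts were 650, 568, 61, 86 and 2666 in the same order, within 1.5 times of those without it. Without the sort 2A libraries of both positive populations they were 476, 577, 43, 71 and 2003. Of called genes 54.0% were higher, 47.1% with TPM rescaled without Siglece, Rn18s, mitochondrial and ribosomal protein genes, and 40.6% with 2 groups. Of the calls of genes named by rule, 25 of 109 over both populations, 75 of 118 in CCR2-RFP and 16 of 68 in CX3CR1-GFP cells held in every setting that tested the gene. A gene that missed the filter in a setting was not counted as lost there. The test against a 2-fold change, a stricter question, is among these settings. Causes were not tested. Depth is unknown.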

Other observations

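Across the 9 libraries the genes whose log2 values ran closest to Cd74 were H2-Ab1 (Pearson r = 0.997), H2-Eb1 (0.995), H2-Aa (0.993), Mpeg1 (0.989) and Glipr1 (0.987). Those that ran most against it were Tcn2 (-0.984), Aldh2 (-0.982), C2 (-0.978), Timp2 (-0.977) and F13a1 (-0.976). These are descriptions over 9 libraries in 3 populations, and libraries of a population share their sort gate. Tcn2, which carries vitamin B12, was 55.2, 56.1 and 56.7 TPM in double-negative, 14, 11.8 and 13.6 in CCR2-RFP and 26.2, 25.1 and 24.1 TPM in CX3CR1-GFP libraries. Aldh2, the mitochondrial aldehyde dehydrogenase, was 27.8, 29.6 and 26.2 TPM, 12.1, 12.8 and 12.1 TPM and 16.5, 13.7 and 15.9 TPM. F13a1, the clotting factor that cross-links fibrin, was 378, 337 and 374 TPM, 135, 104 and 144 TPM and 223, 155 and 219.6 TPM.

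Of 12 genes of class I presentation tested 0 were higher and 2 lower in MHC class II positive cells, with a median of -0.08. Of all genes 6.85% were higher and 5.84% lower, so 0 of 12 is near the overall share. B2m, the light chain of all class I molecules, was 899.7, 885 and 1055 TPM in double-negative, 591, 622 and 629 in CCR2-RFP and 679, 761 and 599 TPM in CX3CR1-GFP libraries (-0.55, limma adjusted p = 0.0119). That call was lost without double-negative 2B, with no filter on low values, with 2 groups and against a 2-fold change. In CX3CR1-GFP cells alone B2m did not pass (-0.48, limma adjusted p = 0.106). The heavy chain genes H2-K1 (167 ± 13.2, 159 ± 10.0 and 147 ± 2.76 TPM) and H2-D1 (115 ± 3.02, 141 ± 1.74 and 84.2 ± 5.67 TPM) were not called.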
